A study of Mus musculus with 6 samples.

Results

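The cytosolic ribosomal protein genes encode the proteins that are built, with ribosomal RNA, into the ribosomes of the cytoplasm. Members were chosen by symbol alone: a symbol that starts with Rpl or Rps and a digit, or is Rplp0, Rplp1, Rplp2 or Rpsa, without the 10 Rps6k kinases and without 1 symbol that has a pseudogene ending. The rule uses no measured value and took 87 of the 17554 genes in the table. Of these, 77 encode core ribosomal proteins, 46 of the large subunit and 31 of the small subunit. Another 9 are paralogues of core genes, and 1, Rps19bp1, encodes a protein that binds the ribosomal protein Rps19 and is not part of the ribosome.

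The data were 3 control and 3 mutant samples of corneal epithelium from mice of strain C57BL/6, all 2 months old, profiled by bulk RNA-seq. The mutant mice were Krt14-Cre; Rela f/f, and their genotype is given as Rela-/- in the labels, while that of the control mice is given as WT. Krt14-Cre makes its recombinase under the keratin 14 promoter, so Rela, the gene of the NF-κB subunit RelA, is removed only in cells that use or once used that promoter. The 3 samples of a group are described as independent, and whether a sample pooled several mice, and whether controls were littermates, is not given in the sources used here.

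Each ribosome holds a single copy of nearly every ribosomal protein, and cells make these proteins in matched amounts from some of their most abundant mRNAs. Most of these mRNAs begin with a tract of pyrimidines, the TOP motif, through which mTORC1 and Larp1 set their translation, so their translation can change without a change in mRNA level. Mutations in single ribosomal protein genes cause anaemia and skeletal defects in humans and mice. In stratified epithelia such as that of the cornea, dividing basal cells need new ribosomes for growth.

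Rela had an FPKM of 36.5, 34.7 and 33.4 in controls and of 4.93, 5.53 and 5.72 in mutants. FPKM scales a level to the length of the transcript and the size of the library. The groups did not overlap, and the log2 fold change of Rela, mutant over control, was -2.75 (SE 0.085, adjusted p = 5.5e-07 by the quasi-likelihood test of edgeR, Benjamini-Hochberg adjusted over the 12667 genes tested). Total expected counts were 19492942 to 19733834 per sample. The 7 markers of corneal epithelium were all above 1 FPKM and summed to 46617 to 50653 FPKM in control and 42735 to 46360 FPKM in mutants, lower in every mutant sample, and 3 of them were called. Markers of stroma (6 genes, 2 of them called) summed to 2.28 to 2.64 FPKM in control and 1.62 to 4.21 FPKM in mutants. The 3 vascular markers in the table, none of them above 1 FPKM and none called, summed to 0.03 to 0.09 FPKM in control. In mutants they summed to 0.14 to 0.23 FPKM, higher in every mutant sample. The 7 leukocyte markers summed to 85.3 to 91.9 FPKM in control and 79.9 to 124 FPKM in mutants. The 5 markers of conjunctiva and goblet cells summed to 1362 to 1595 FPKM in control and 1074 to 1192 FPKM in mutants, also lower in every mutant sample, with 1 called. Markers of red blood cells, none of them called, summed to 3.18 to 4.29 FPKM in control. In mutants they summed to 2.25 to 2.66 FPKM, lower in every mutant sample. Summed markers of melanocytes (4.29 to 5.18 FPKM) and epidermis (4.99 to 6.77 FPKM) overlapped between the groups. The part of these cell types in the results below was not tested, and in bulk RNA fewer cells of a type and less RNA per cell cannot be told apart. Mutant sample 1 lay farther from its group than the other samples did from theirs, so counts of called members are also given without it.

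As a whole, the family held shares of the RNA that overlapped between the genotypes. The members took 2.95%, 2.75% and 2.89% of all expected counts in controls and 2.89%, 2.76% and 3.07% in mutants. The ranges overlapped, with the highest share in mutant sample 3 and the lowest in control sample 2. The counts of the large subunit genes over those of the small subunit genes were 1.68, 1.74 and 1.69 in controls and 1.74, 1.84 and 1.79 in mutants, so mutant samples 2 and 3 lay above all control samples and mutant sample 1 lay just below control sample 2.

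**Figure D1:**
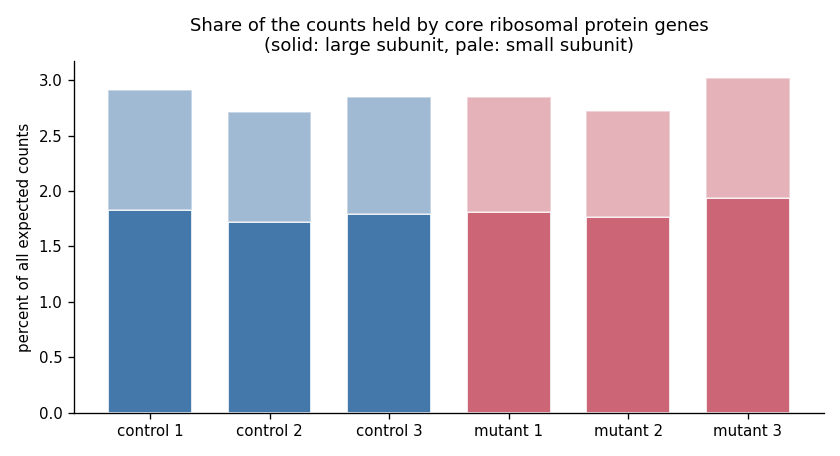
Percent of all expected counts held by the 77 core ribosomal protein genes in each of the 6 samples (x axis), with the large subunit as the solid lower part and the small subunit as the pale upper part of each bar. The heights of control and mutant bars overlap, with the tallest in mutant sample 3 and the shortest in control sample 2.

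Of the 77 core genes, 32 had their lowest TMM-scaled CPM (counts scaled to a common library size) in control sample 2 and 28 in mutant sample 2. In turn, 31 had their highest value in mutant sample 3 and none their lowest there. Control samples 1 and 3 held the highest value of 13 and 15 core genes and the lowest of 4 and 1, while mutant sample 1 held the highest of 17 and the lowest of 12. The samples that most often held the lowest value, control 2 and mutant 2, were thus of different genotypes. The SD of log2 CPM between samples of a group had a median over the core genes of 0.084 in control and 0.118 in mutant mice, beside 0.112 and 0.14 over all genes tested.

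The core members were among the most abundant mRNAs of the corneal epithelium. Their mean FPKM over the 6 samples ran from 17.8 to 1133 with a median of 479, where the median of all genes tested was 8.28, and 57 of the 77 core genes were among the 200 genes with the highest mean FPKM. The median was 478 in the large subunit and 491 in the small subunit. The 5 members with the highest level were Rpl23a, Rplp0, Rpl28, Rpl13 and Rps26, with means of 1133, 1052, 988, 987 and 947 FPKM. Rps6, the ribosomal protein that the S6 kinases phosphorylate, had the lowest level of the core at 17.8 FPKM. Rps15a came next by FPKM, which is scaled to transcript length, but not by counts. Its TMM-scaled CPM was 105 to 150 over the 6 samples, above the 51.9 to 68.6 of Rps21. For Rps6, 84.6% of the 50-base windows of its annotated transcript are also found in its pseudogene Rps6-ps4, and all 6 of its counts are fractional, which means that reads were divided between genes. The level of Rps6 in the table is therefore uncertain. Across the 77 core genes, log2 mean FPKM in control and in mutant mice had a Pearson r of 0.99. This r is across genes, which share their libraries and are not independent replicates.

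Of the 87 members, 85 passed the filter on low counts and were tested. In the mutant samples 1 member, Rpl36al, rose and 2 members, Rps14 and Rps21, fell at an adjusted p under 0.05. Among all genes tested, 7.82% rose and 5.42% fell at this threshold, 13.2% in either direction. The 3 members called are 3.53% of the members tested. None of the members passed the thresholds of the study's methods (adjusted p up to 0.001, with a fold of 2 or more), in the edgeR test or in DESeq2, beside 1.37% of all genes tested, and 10 members had an unadjusted p under 0.05. The median log2 fold change was 0.02 over the members tested and -0.00 over all genes tested. With effective length offsets, without control replicate 2 and without mutant replicate 3 the median of the members was below 0 (-0.0421, -0.0107 and -0.00122), so it has no fixed direction.

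The intervals bound how far single members could have moved. The size of the log2 fold change was under 0.25 in 74 of the 85 members (87.1%, beside 66.1% of all genes tested) and under 0.5 in 83 of them. The 95% interval lay inside 1 log2 unit on both sides, a fold of 2, in 83 of 85 members and inside 0.5 log2 units in 75. The 2 members with wider intervals were Rpl29 and Rpl3l. Inside 0.25 log2 units on both sides lay the intervals of only 28 members, so a difference of that size was not excluded in most members with 3 samples a group.

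**Figure D2:**
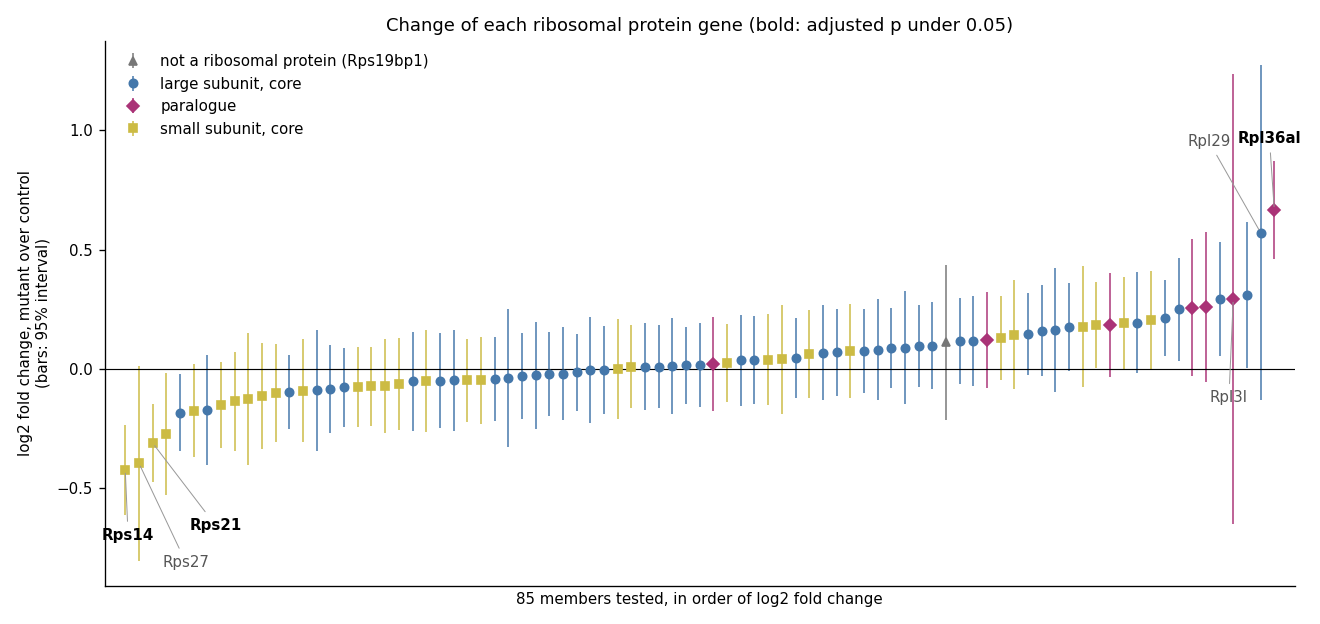
Log2 fold change, mutant over control (y axis), of the 85 members tested, placed from the lowest to the highest (x axis), with bars for the 95% interval. Circles are core genes of the large subunit, squares core genes of the small subunit, diamonds paralogues and the triangle Rps19bp1. The points run from -0.43 (Rps14) to 0.67 (Rpl36al), and the widest bars are those of Rpl29 and Rpl3l.

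Rpl36al encodes a close copy of the large subunit protein encoded by Rpl36a, which sits where the deacylated tRNA leaves the ribosome. Rpl36al lies on chromosome 12 of GRCm38 (69182734 to 69184067, minus strand) and Rpl36a on the X chromosome (134585654 to 134588062, plus strand). Their coding sequences are of the same length, 318 bases, and differ at 39 bases (87.7% identity), and no 50-base window of the coding sequence is shared, so a read of 50 bases from the coding part can tell them apart. The first 60 coding bases from GENCODE M21 (GRCm38) are shown because they hold 11 of these differences, which are in capitals.
Rpl36al: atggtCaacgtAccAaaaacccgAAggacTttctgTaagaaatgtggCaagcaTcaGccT
Rpl36a: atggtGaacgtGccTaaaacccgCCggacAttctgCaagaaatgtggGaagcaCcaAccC

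Rpl36al had an FPKM of 106, 100.4 and 116 in controls and of 154, 176 and 182 in mutants. Every mutant sample lay above every control sample. The mean rose from 107 ± 7.7 to 171 ± 15 FPKM (SD, n = 3), a log2 fold change of 0.67 (SE 0.092, 95% interval 0.46 to 0.87, adjusted p = 0.00154 from edgeR). The 6 counts were whole numbers of 956 to 1757, and 22.1% of the 50-base windows of its transcripts occur in another gene, mostly Gm49383, a predicted gene that overlaps 24.5% of its exon bases on the same strand. Counts of overlapping genes are uncertain.

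Rpl36a had an FPKM of 332, 298 and 319 in controls and of 337, 360 and 435 in mutants. Its mutant samples also lay above its control samples, mutant sample 1 by the smallest margin, and its log2 fold change was 0.25 (95% interval 0.03 to 0.47, adjusted p = 0.127 from edgeR). Of the counts given to the pair, Rpl36al took 25.3%, 26.4% and 27.8% in controls and 32.7%, 34.2% and 30.8% in mutants. The mutant shares were all above the control shares. For the sum of both genes the log2 fold change was 0.37 (SE 0.091, adjusted p = 0.0263 from edgeR). The pair was summed after its values were seen.

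Rps14 encodes a protein of the small subunit platform, close to the site where mRNA leaves, and loss of 1 copy of it underlies the anaemia of a myelodysplastic syndrome. It had an FPKM of 590, 526 and 569 in controls and of 438, 381 and 440 in mutants. The mean fell from 562 ± 33 to 419 ± 33 FPKM (SD, n = 3) without overlap, a log2 fold change of -0.43 (SE 0.084, 95% interval -0.61 to -0.24, adjusted p = 0.00973 from edgeR). It was the largest fall among the members. Of its 50-base windows, 16.3% occur in other genes, and its 6 counts were whole numbers.

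Rps21 encodes a small protein of the small subunit and lies on chromosome 2 of GRCm38 (180257370 to 180258444, plus strand). It had an FPKM of 192, 180.2 and 182 in controls and of 143, 146 and 159 in mutants. The mean fell from 185 ± 6.3 to 149 ± 8.9 FPKM (SD, n = 3), again without overlap, a log2 fold change of -0.31 (SE 0.073, 95% interval -0.47 to -0.15, adjusted p = 0.0213 from edgeR). Its call was lost without control replicate 1 (adjusted p = 0.0782), without control replicate 3 (0.0712) and without mutant replicate 2 (0.0733), all from edgeR. The range of its adjusted p over 17 alternatives was 0.00538 to 0.0782. Rpl36al and Rps14 were called in all 17.

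**Figure D3:**
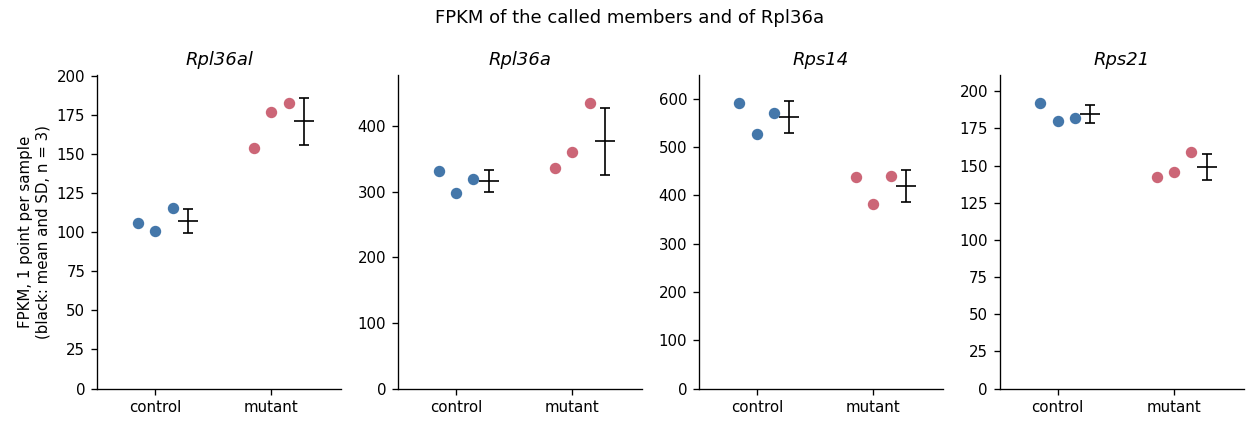
FPKM (y axis, from 0) of Rpl36al, Rpl36a, Rps14 and Rps21 in the 3 control and the 3 mutant samples, 1 point per sample, with the mean and SD of each group in black. Control and mutant points do not overlap in any of the 4 genes, and the gap is narrowest for Rpl36a.

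Without mutant replicate 1, 5 members rose (Rpl36al, Rpl7a, Rpl36a, Rpl38 and Rpl39) and 5 fell (Rps14, Rps21, Rps7, Rps15a and Rpl30), beside 8.25% and 6.33% of all genes tested in that fit. Rps7, a small subunit protein gene, had an FPKM of 602, 565 and 587 in controls and of 572, 412 and 470 in mutants 1, 2 and 3, and mutant sample 1 lay within the control range. Its log2 fold change was -0.27 (adjusted p = 0.15) with all samples and -0.42 (adjusted p = 0.00712) without mutant replicate 1, both from edgeR. Without mutant replicate 3, Rps27 was also called lower. Apart from Rpl36al, Rps14 and Rps21, these members are named because edgeR called them only with 1 library left out.

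By TMM-scaled CPM, the mutant samples all lay above the control samples in 9 of the 85 members, beside 17.3% of all genes tested, and all below in 4, beside 16.4%. The 9 were Rpl36al, Rpl36a, Rpl37, Rpl7a, Rpl5, Rpl24, Rps2, Rps25 and Rps27l, and the 4 were Rps14, Rps21, Rpl9 and Rplp0. Of these 13, the 3 called genes are described above. Rpl7a came next in adjusted p, with 645, 610 and 629 FPKM in control and 692, 728 and 770 FPKM in mutants, a log2 fold change of 0.21 and an adjusted p of 0.0812 from edgeR. DESeq2 called it higher (adjusted p = 0.0301). Its transcript shares windows with 120 pseudogenes, the most of any core gene.

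The genes of the P stalk, the flexible arm that recruits elongation factors to the ribosome, all had log2 fold changes just below 0. Rplp0, which anchors the stalk, had an FPKM of 1114, 1071 and 1073 in controls and of 1018, 974 and 1060 in mutants. The mutant samples were all lower, but by a log2 fold change of -0.10 with a 95% interval of -0.25 to 0.06 (adjusted p = 0.397 from edgeR). The stalk proteins Rplp1 and Rplp2 and the stalk base protein Rpl12 had values of -0.09, -0.09 and -0.05, and none of the 4 passed the test in edgeR or DESeq2 or had an unadjusted p under 0.05. Rplp2 was at 0.01 without mutant replicate 1 and Rpl12 at 0.03 without mutant replicate 2.

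Rpl5 and Rpl11 form a particle with 5S ribosomal RNA that can bind and inhibit Mdm2, the ligase that degrades p53. Rpl5 had an FPKM of 499, 488 and 486 in controls and of 498, 558 and 619 in mutants, so that mutant sample 1 lay within the control range in FPKM and just above it in scaled CPM. Its log2 fold change was 0.18 (95% interval -0.01 to 0.36, adjusted p = 0.196 from edgeR). For Rpl11 it was -0.04 (-0.22 to 0.13).

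The 9 genes of proteins that line or ring the exit tunnel of the nascent chain had log2 fold changes of -0.03 (Rpl22) to 0.16 (Rpl39) with a median of 0.01, and none passed the test in edgeR or DESeq2 or at an unadjusted p under 0.05. The 5 genes of mRNA entry and decoding ran from -0.11 (Rps3) to 0.20 (Rps2) with a median of -0.05, with none called in the same 3 ways. Among genes of the platform around the mRNA exit, Rps14 fell, while Rps26 was at 0.18, Rps28 at 0.14 and Rpsa, also known as the laminin receptor precursor, at -0.00 (95% interval -0.21 to 0.21). Rps27a, which is made as a fusion with ubiquitin, was at 0.04 (-0.15 to 0.23). The 46 large subunit genes had a median of 0.03 with none called by edgeR (5 at an unadjusted p under 0.05, and Rpl7a called by DESeq2), and the 31 small subunit genes a median of -0.05 with 2 lower. The median of the large subunit was below 0 with effective length offsets (-0.033) and without control replicate 2 (-0.0071), and that of the small subunit was below 0 in all 17 alternatives (-0.11 to -0.0042).

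The largest change among core members that did not pass the test was that of Rpl29, which encodes a surface protein of the large subunit. Its log2 fold change was 0.57 with a SE of 0.313 (95% interval -0.13 to 1.27, adjusted p = 0.267 from edgeR). Its expected counts were 1995, 5913 and 4625 in controls and 7310, 5739 and 5660 in mutants. Control sample 1 stood alone at a low value and mutant sample 1 was the highest, so the groups overlapped. Windows of its transcripts are shared with 81 pseudogenes, and over the 17 alternatives its log2 fold change was 0.23 to 0.90 without a call.

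Rpl38, whose loss disturbs the pattern of the mouse axial skeleton, had 244, 203 and 241 FPKM in controls and 222, 310 and 317 FPKM in mutants. Mutant samples 2 and 3 lay above all controls and mutant sample 1 lay within their range, and the log2 fold change was 0.31 (95% interval 0.00 to 0.61, adjusted p = 0.171 from edgeR).

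Rps27 had the largest fall after Rps14, and its values depend on a copy with the same coding sequence. Rps27 lies on chromosome 3 (90212667 to 90213648, minus strand) and Rps27rt, a copy without introns, on chromosome 9 (114982366 to 114982739, minus strand) of GRCm38. Their coding sequences of 252 bases differ at 0 bases, so that a read from the coding part fits both. The first 60 coding bases (GENCODE M21) of both and of the more distant paralogue Rps27l are shown because they set what a 50-base read can tell apart; capitals in Rps27l mark the bases at which it differs from Rps27.
Rps27: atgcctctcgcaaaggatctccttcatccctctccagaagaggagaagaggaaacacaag
Rps27rt: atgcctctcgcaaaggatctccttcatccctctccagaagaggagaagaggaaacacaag
Rps27l: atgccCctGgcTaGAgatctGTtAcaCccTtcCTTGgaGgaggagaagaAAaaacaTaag

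The TMM-scaled CPM of Rps27 was 98.9, 107 and 116 in control and 57.2, 80.6 and 106 in mutants, with mutant samples 1 and 2 below all control samples and mutant sample 3 within their range. That of Rps27rt was 110, 79.8 and 88.8 in control and 97.2, 112 and 124 in mutants, mutant samples 2 and 3 being above all control samples. The log2 fold changes were -0.40 (95% interval -0.81 to 0.01, adjusted p = 0.189) and 0.26 (-0.03 to 0.54, adjusted p = 0.225), both from edgeR. Leaving out 1 sample at a time moved Rps27 between -0.64 (without mutant replicate 3, adjusted p = 0.0207) and -0.20 (without mutant replicate 1), and Rps27rt between 0.16 (without control replicate 2) and 0.39 (without control replicate 1). Rps27 took 47.3%, 57.3% and 56.6% of the counts of the pair in controls and 37.0%, 41.9% and 46.2% in mutants, lower in every mutant sample. Summed, the pair had 209, 187 and 204 CPM in control and 154, 192 and 230 CPM in mutants, which overlap, and a log2 fold change of -0.06 (SE 0.129, adjusted p = 0.816 from edgeR). All counts of both genes are fractional, and the division between them is an estimate made from reads that fit both. The sum, the value that does not need the division, was added after the data were seen.

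**Figure D4:**
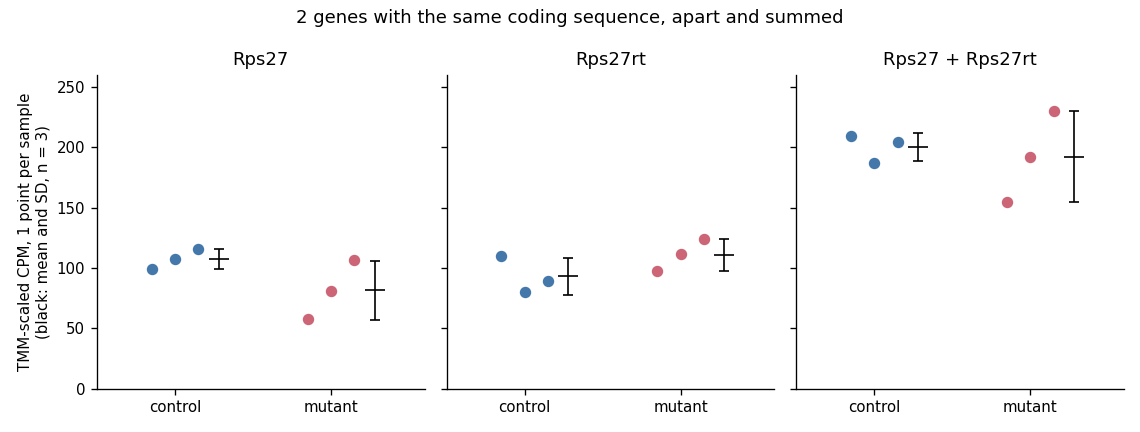
TMM-scaled CPM (y axis, from 0) of Rps27, of its intronless copy Rps27rt and of their sum in the 3 control and 3 mutant samples, 1 point per sample, with mean and SD in black. The mean is lower in mutants for Rps27 and higher for Rps27rt, and the summed points overlap.

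The 7 paralogues tested had log2 fold changes above 0, with a median of 0.26, beside 0.01 for the core genes, and Rpl36al was the 1 that rose. Their median was 0.12 without mutant replicate 3, 0.16 without control replicate 2 and 0.15 with effective length offsets, and 0.34 at the highest of 17 alternatives. The values of the others, none of which passed the test, were 0.29 for Rpl3l, 0.26 for Rpl22l1 and Rps27rt, 0.18 for Rps27l, 0.12 for Rpl7l1 and 0.02 for Rpl37rt. Rpl37rt was below 0 with effective length offsets (-0.04), without control replicate 2 (-0.05) and without mutant replicate 1 (-0.03). Rps27l, which p53 can induce, had 44.3, 37.8 and 44.2 FPKM in control and 50.4, 46.7 and 46.3 FPKM in mutants, higher in each mutant sample (adjusted p = 0.256 from edgeR).

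Rpl22l1, the paralogue of Rpl22, had 38.7, 35.2 and 42.0 FPKM in control and 37.0, 46.4 and 56.5 FPKM in mutants, and the groups overlapped (adjusted p = 0.265 from edgeR). Rpl22 itself was at 89.8 ± 6.2 and 87.8 ± 6.1 FPKM (SD, n = 3). Rpl7l1, a relative of Rpl7, was at 24.5 ± 2.1 and 26.7 ± 2.3 FPKM (SD, n = 3). Rpl37 and its copy Rpl37rt, whose reads can also be divided between them, had log2 fold changes of 0.29 and 0.02. Their sum had 0.12 (adjusted p = 0.319 from edgeR).

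Paralogues known from other tissues were at or near the limit of detection. Rpl3l, the form of heart and skeletal muscle, had 7.7 to 14.2 counts in control and 7.2 to 17.6 counts in mutants, which leaves its 95% interval at -0.65 to 1.24. Rpl39l, the form of the male germ line, had 2, 4 and 1 counts in control and 1, 0 and 0 in mutants, and a count of 0 allows up to 3 counts. Rpl32l had 6.02 to 13.2 counts in control and 5.32 to 15.7 counts in mutants. Rpl39l and Rpl32l did not pass the filter and were not tested. Rps19bp1, the member that is not a ribosomal protein, had 8.26 ± 0.8 and 8.94 ± 1.1 FPKM (SD, n = 3) with a log2 fold change of 0.11 (95% interval -0.21 to 0.44).

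Nearly all core members share sequence with pseudogenes, the intronless copies that ribosomal protein mRNAs leave in the genome. Windows of 50 bases were compared with all other annotated genes, and the core genes shared a median of 35.8% of their windows, with a highest share of 85.5% (Rpl36a). The 15 core genes with under 20% shared windows had a median log2 fold change of -0.05 and a range of -0.43 (Rps14) to 0.19. Across the 77 core genes the log2 fold change had a Pearson r of 0.10 with the share of windows, -0.02 with transcript length and 0.15 with GC content, as a description over genes of the same libraries. The 30 core genes that hold snoRNA genes, 58 in all, had a median of 0.02 and the 47 others of 0.01.

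Runs of pyrimidines were counted around the start sites. RefSeq (GRCm38.p6) gave a start site for 67 of the 87 members. A run of at least 7 pyrimidines (C or T, on the strand of the gene) between 25 bases before and 50 bases after the start was found in 54 of the 67 (80.6%), beside 40.6% of 69 mitochondrial ribosomal protein genes and 39.9% of 27025 start sites of all genes. The run may lie anywhere in this window, so these are not shares of mRNAs that begin with a TOP motif. For members the listed start nearest to the start of the gene in the deposited data was used. For the mitochondrial genes and all genes it was the first listed start of each gene, so the shares rest on unlike choices of start. Windows of 10 bases before and 20 bases from the start on are shown, with runs of 5 or more pyrimidines in capitals. They are given for Rpl35 and Rplp2 as examples, and for the called members that have an entry and may be printed. In the whole searched stretch the longest run was 18 bases in Rpl35 and 10 bases in each of Rplp2, Rps21 and Rpl36al. The windows shown do not hold the full longest run of Rps21 and Rpl36al.
Rpl35: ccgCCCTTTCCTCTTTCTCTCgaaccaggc
Rplp2: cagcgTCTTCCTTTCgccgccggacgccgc
Rps21: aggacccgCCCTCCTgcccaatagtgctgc
Rpl36al: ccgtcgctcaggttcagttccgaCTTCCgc

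These windows lie at chr2:39005112-39005141 (minus strand), chr7:141447641-141447670 (plus), chr2:180257369-180257398 (plus) and chr12:69184048-69184077 (minus). The consensus NF-κB motif, searched on both strands of the 300 bases around each start, was found in 5 of the 67 members (7.46%), 7.25% of the mitochondrial ribosomal protein genes and 8.18% of all starts. The starts were chosen as above, by unlike rules for members and for the other genes. These matches are descriptions of letters, and no binding was measured in these samples.

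The wider machinery of translation was compared through gene lists. These lists were chosen with earlier results of these data known, so their counts are descriptions. Of all 12667 genes tested, 7.82% rose, 5.42% fell and 6279 had values above 0. The ribosomal protein Fau is made as a fusion, and the symbol rule does not reach it. Fau and the ribosome-bound scaffold Rack1 had log2 fold changes of 0.24 and -0.07, and neither passed the test with all samples. Their list held 3 tested genes, of which 1 was called higher without mutant replicate 1 and 1 lower with effective length offsets. Of 13 elongation factors and other TOP mRNAs, 2 rose and none fell, beside 7.82% and 5.42% of all genes tested. Their median was 0.10. Npm1, a nucleolar chaperone that binds ribosomal proteins, rose from 81.3 ± 2.4 to 155 ± 30 FPKM (SD, n = 3), a log2 fold change of 0.91 (adjusted p = 0.00166), and Eef1g, a subunit of the elongation factor that reloads Eef1a1, by 0.31 (adjusted p = 0.0269), both from edgeR. Eef1a1 was at -0.03 and Eef2, the translocase, at -0.06, with 95% intervals of -0.21 to 0.16 and -0.25 to 0.13. Nap1l1, a histone chaperone, was at 0.26 (adjusted p = 0.075 from edgeR). Only 1 of the 13 was called higher without control replicate 1, 2 or 3, without mutant replicate 3 or with the replicate block, DESeq2 and the length offsets each called 1 lower, and the median was 0.04 without control replicate 2.

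Of 33 initiation factors, 4 rose and none fell, beside 7.82% and 5.42% of all genes tested. Their median was 0.10, and 29 had values above 0, beside 6279 of the 12667 genes tested. Eif2s2, the beta subunit of the factor that brings the initiator tRNA, changed by 0.46 log2 units (adjusted p = 0.0099). Eif6, which keeps the subunits apart, had 0.31 (adjusted p = 0.0288), and Eif3a, a scaffold of the eIF3 complex, 0.29 (adjusted p = 0.03). These p-values are from edgeR. Without control replicate 2 none of the 33 was called higher, without control replicate 3 or with the replicate block 2 were, and without control replicate 1, mutant replicate 2 or mutant replicate 3 only 1 was. Without mutant replicate 1, 5 were called higher and 1 lower. The median was 0.06 without control replicate 2.

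Factors that assemble ribosomes in the nucleolus and export them formed a list of their own. Of 48 biogenesis factors 7 rose and none fell, beside 7.82% and 5.42% of all genes tested. Values above 0 were found in 43, beside 6279 of the 12667 genes tested. The median was 0.25 log2 units, where the core ribosomal protein genes had 0.01. The difference between the lists was not tested. Nhp2, a protein of the box H/ACA particles that modify ribosomal RNA, had 27.2, 24.1 and 25.6 FPKM in control and 38.7, 30.3 and 36.7 FPKM in mutants. Its log2 fold change was 0.46 (adjusted p = 0.0189). Nmd3, the export adaptor of the large subunit, and Ddx21, a helicase of ribosomal RNA synthesis, had values of 0.35 (adjusted p = 0.0215) and 0.37 (adjusted p = 0.0235), all from edgeR. The count of 7 fell to 0 without control replicate 2 or without control replicate 3 and to 2 without mutant replicate 3, while the median stayed between 0.18 and 0.29 over the 17 alternatives.

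Of 15 genes of RNA polymerase I transcription, which makes the ribosomal RNA, 1 rose, beside 7.82% of all genes tested. It was the promoter selectivity factor subunit Taf1d (0.33, adjusted p = 0.0357 from edgeR), and the median of the list was 0.07. The values of Taf1c and Polr1e, next in adjusted p, were -0.16 and 0.30, and neither passed. No gene of this list was called without control replicate 1, 2 or 3, without mutant replicate 2 or with the replicate block, and the median was 0.02 to 0.08 over the 17 alternatives, lowest without mutant replicate 3. Of 78 mitochondrial ribosomal protein genes, whose products build a separate ribosome, 4 rose and none fell, beside 7.82% and 5.42% of all genes tested. Beside 6279 of the 12667 genes tested, 59 of the 78 had values above 0, with a median of 0.11 over the 78. Mrpl33 had the largest value, with 16.9, 15.3 and 14.7 FPKM in control and 28.5, 21.6 and 25.4 FPKM in mutants. Its log2 fold change was 0.69 (edgeR, adjusted p = 0.0101). Mrps5 and Mrpl52 both had 0.40, with adjusted p of 0.0404 and 0.0408. None of the 78 was called without control replicate 2, and 1 or 2 rose without any other single sample. Without mutant replicate 1, 1 of the 78 was also called lower.

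**Figure D5:**
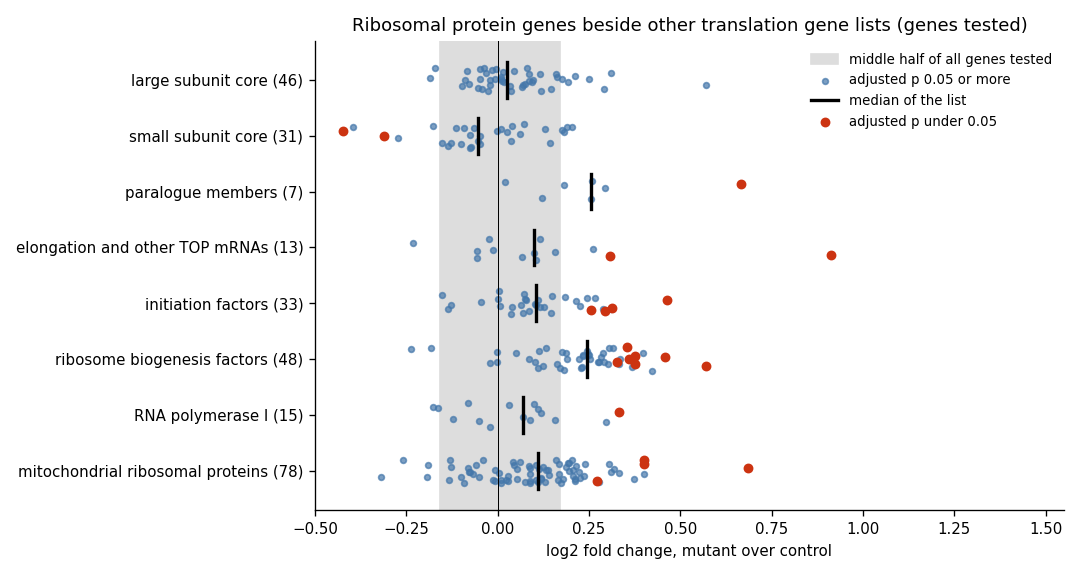
Log2 fold change, mutant over control (x axis), of the genes tested in 8 lists (y axis, number tested in brackets), 1 point per gene, red for adjusted p under 0.05, with the median of each list as a black bar and the middle 50% of all genes tested as a grey band. Both core lists have medians close to 0, and the median of the biogenesis factors, 0.25, lies to the right of the band.

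Of 18 tested genes of mTORC1 signalling and its TOP regulators, 3 rose and 1 fell, beside 7.82% and 5.42% of all genes tested. Myc, a transcription factor known to drive ribosome production, had 14.6, 12.2 and 11.1 FPKM in control and 18.6, 19.7 and 22.4 FPKM in mutants, a log2 fold change of 0.68 (edgeR, adjusted p = 0.00288). Eif4ebp1, the cap-binding inhibitor that mTORC1 phosphorylates, rose by 0.68 (adjusted p = 0.0055) and Sesn2, a leucine sensor upstream of mTORC1, by 0.65 (adjusted p = 0.00572), while Mycl fell by 0.46 on the log2 scale (adjusted p = 0.0105), all from edgeR. No gene of the list was called lower without control replicate 2 or without control replicate 3. Mtor itself was at 0.09 (95% interval -0.11 to 0.29).

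In the list of the p53 axis, through which cells respond to unassembled ribosomal proteins, 9 of 11 genes were tested, 1 rose and 1 fell. Among all genes tested, 7.82% rose and 5.42% fell. Pmaip1, which encodes the BH3 protein Noxa, had 13, 5 and 8.3 counts in control and 125, 68.1 and 74 counts in mutants, a log2 fold change of 3.34 (adjusted p = 0.000529). Sesn1, a relative of Sesn2, fell from 32.5 ± 3.7 to 16.4 ± 0.67 FPKM (SD, n = 3) (adjusted p = 0.000275), both from edgeR. Mdm2 had 0.20 (adjusted p = 0.0986) and Cdkn1a 0.23 (adjusted p = 0.173), so neither passed. The 2 that passed moved in opposite directions.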

How the data were processed

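The authors filtered single-end 50-base reads with SOAPnuke, aligned them with Bowtie2 2.2.5 and estimated counts with RSEM 1.2.12, after removal of ribosomal RNA. The labels name an Illumina kit and mm9, the methods a BGISEQ-500 instrument, and the coordinates of the table are those of GRCm38. The deposited expected counts are neither normalized nor pooled, and 31.5% to 32.2% of them per sample are not whole, since RSEM divides reads that fit several genes. The deposited FPKM values are scaled by effective transcript length and sample total. The table also holds log2 fold changes, p-values and q-values deposited from a DEGseq comparison of the genotypes, which were not used.

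Expected counts were rounded and tested with edgeR 4.0.16 in R 4.3.3 (TMM scaling, filterByExpr at min.count 10 and min.total.count 15, quasi-likelihood test, genotype only) on the whole table, with Benjamini-Hochberg adjustment over 12667 genes. An SE is the absolute log2 fold change divided by the root of F, and intervals are 95%. The p-values set each difference against the spread between the 3 samples a group, for which the edgeR test also draws on other genes. Samples of a group differed by more than counting error (chi-square over degrees of freedom of 8.5 to 27.6 for pairs of samples). The limit of 3 counts for a count of 0 covers counting error only, and copies made by PCR are not independent molecules. The genes named are Rela, the members called, the 3 largest and 3 smallest changes, the 5 highest levels, the stalk, 5S, ubiquitin fusion and Rpsa genes, the paralogues, Rps19bp1, members not tested, and 3 genes per related list. Others were chosen after their values were seen. The members and lists were chosen with earlier results of these data known. Shared windows were counted in GENCODE M21 transcripts. Alternatives were DESeq2 1.42.0, limma 3.58.1 on log2(FPKM + 1) and on log2(FPKM + 0.1), other scalings and filters, effective length offsets, a replicate block and each sample left out. The statistics were tested on simulated data. Results for some genes are not reported here.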

Additional observations from a re-analysis of the deposited data

How the results depend on the processing

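DESeq2 called 2 members higher, Rpl36al and Rpl7a, in place of 1. Leaving out 1 sample at a time gave 1 to 5 members higher and 1 to 5 lower, the 5 and 5 without mutant replicate 1, and Rps21 was lost in 3 of the 6 fits. The other scalings, filters, limma fits and length offsets kept 1 higher and 2 lower. The counts past the thresholds of the study were 0 throughout. A replicate block gave 1 higher, 2 lower, a median of 0.0191 and 1419 called genes in all in place of 1678. The replicate numbers of the 2 genotypes share only a number: correlations of same-numbered deviations were 0.019, 0.048 and -0.046. Over all genes, calls were 857 without control replicate 2 and 999 without control replicate 3. The median of the members ran from -0.0421 to 0.0459. Of 1459 values of single members or Rela, 9 gained and 3 lost a call and 76 changed sign without a call in either fit, the largest of these at a reported size of 0.0908. Counts of called genes in the initiation, biogenesis and mitochondrial lists ranged from 0 to 6, 0 to 9 and 0 to 4 for rises. The causes were not tested. Summing the 2 pairs with shared sequence, added after the data were seen, left the calls of the members at 1 higher and 2 lower. Depth is not limiting for the core members, while Rpl3l, Rpl32l and Rpl39l have too few counts for a statement on their change.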
